A study of Taxus mairei and Taxus cuspidata and Taxus x media with 9 samples.

Results

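Yews are conifers known for taxoids, the diterpenoids that include the anticancer drug taxol (paclitaxel). *T. media* is a garden hybrid bred from *T. cuspidata* and *T. baccata*. Here the hybrid was set against *T. cuspidata*, which is a parent species, and *T. mairei*, which is not. *T. baccata* was not sequenced here, so a value between the species is not a mid-parent value. The question was where the hybrid stood, gene by gene, relative to both other yews.

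Expression was read from 3 *T. media* libraries, 3 *T. cuspidata* libraries and 3 *T. mairei* libraries, each made from fresh twigs (wood with needles) of cultivated trees aged 3 years and kept in a growth chamber under equal hours of light and dark. No group was treated. The study's methods name 5 trees per species without tying trees to libraries, so each p value here reflects only the spread between these libraries. The described set holds the unigenes (assembled transcripts taken as genes) of at least 500 bp that carry a gene name, 9619 of the 33895 in the deposited tables. Of these, 9569 reached a TPM (transcript abundance corrected for length, with equal totals for all libraries) of 1 in at least 3 libraries and were tested, and the other 50 were left out. Those tested carry 6360 gene names. The length limit cut through a continuous range. Named unigenes of 450 to 499 bp numbered 421, of which 66 had all *T. media* libraries above the others, against 68 of 370 at 500 to 549 bp.

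The libraries with counts were of like depth, and no library was a copy of another. The 8 libraries with counts held 32783233 to 44821305 reads on unigenes, and *T. mairei* replicate 3 has TPM but no counts. Correlations of log2(TPM + 1) between libraries of a species ran from 0.771 to 0.928, with *T. cuspidata* replicate 1 the farthest from its partners. The TPM scales of the species were not level with each other. Median-of-ratios size factors computed on TPM were 1.202 to 1.282 in *T. media*, compared with 1.118 to 1.184 in *T. cuspidata* and 0.6967 to 0.7445 in *T. mairei*, so a typical unigene had a lower TPM in *T. mairei*. Over all 33039 unigenes tested, the median log2 fold change was 0.12 for *T. media* vs. *T. cuspidata* and 0.62 for *T. media* vs. *T. mairei*, and it was 0.33 against the mean of both. After division by the size factors the last became -0.04. Counts of unigenes above, below and between are therefore given on both scales for the main results and the gene lists.

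Needles and wood are both present in the labelled tissue, and the defining genes of both were found. The needle genes (small subunits of Rubisco, chlorophyll-binding proteins and photosystem subunits, 26 tested members) summed to 19963 to 35690 TPM in *T. media*, beside 43320 to 51335 in *T. cuspidata* and 2534 to 4579 in *T. mairei*. Wood genes were scarce, with 4 members (among them the secondary-wall cellulose synthases CESA7 and CESA8) at 30.9 to 34.4, 37.5 to 40.7 and 47.2 to 58.2 TPM in the same order. In whole twigs, fewer cells of a type and less RNA per cell cannot be told apart. The name searches for phloem and for dividing cells matched mostly phosphatases and other genes and were not used.

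Of the 9569 named unigenes, 2393 (25.0%) had every *T. media* library above all 6 libraries of the other species, 408 (4.26%) had every *T. media* library below them, and 2122 (22.2%) had the *T. media* libraries strictly between the other species. Over all unigenes tested the shares were 19.8%, 3.59% and 15.6%. The between group was uneven. In 1609 unigenes (16.8%) *T. cuspidata* was the higher species and *T. mairei* the lower, and in 513 (5.36%) the order was the opposite. The remaining 4646 overlapped with at least 1 other species. These groups are descriptions by the values themselves and carry no test.

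The excess of high over low values rested on the scale. With TPM divided by the size factors, 1325 unigenes (13.8%) were above, 1090 (11.4%) below and 1971 (20.6%) between, the last split into 1040 with *T. cuspidata* higher and 931 with *T. mairei* higher. Over all unigenes the shares on this scale were 12.7%, 7.88% and 14.8%, so the share above was near that of all unigenes. Of the 2393 above on TPM, 1325 stayed there. All 408 below stayed too, but this was built in. Every *T. media* size factor was larger than that of any other library, so division could only lower the hybrid relative to the others. Of those between, 888 of 1609 and 480 of 513 kept their place. The share between was thus close on both scales, and the surplus of unigenes above was not.

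**Figure D1:**
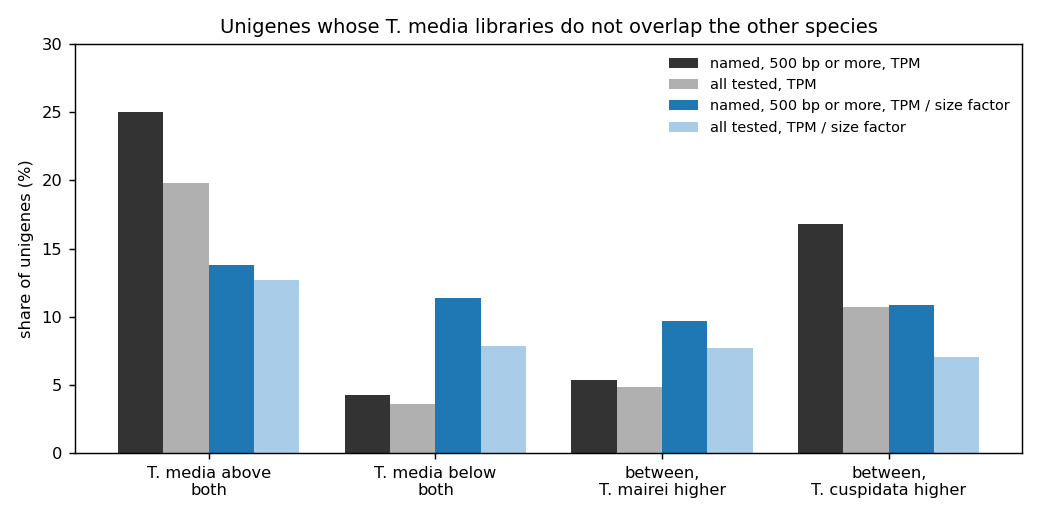
Share of unigenes, in percent (y axis), whose 3 *T. media* libraries lay above, below or between the 6 libraries of *T. cuspidata* and *T. mairei* (x axis), for the named unigenes and for all unigenes tested, on deposited TPM and on TPM divided by size factors. On TPM 25.0% of the named unigenes were above and 4.26% below, and after division by size factors 13.8% and 11.4%.

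By the test, limma on log2(TPM + 1) with Benjamini-Hochberg adjustment (adjusted p below 0.05 and an absolute log2 fold change above 1), *T. media* was higher than the mean of both other species for 1804 named unigenes (18.9%, against 21.0% of all unigenes tested) and lower for 765 (7.99%, against 14.0%). With size factors the split was 1068 higher and 1121 lower, and with edgeR on the counts of 8 libraries 1372 and 918. Since a mean over 2 species can rest on 1 of them, each comparison was also required. The hybrid was higher than each of the other species for 760 (7.94%, against 9.96% of all), lower than each for 122 (1.27%, against 1.48%), and called between them for 516 (5.39%, against 5.06%). Called values in every case made up a share near or under that of all unigenes, so the named set was not richer in them. The nearest libraries were at least 1 log2 unit apart for 412 of the unigenes above, 53 of those below and 190 of those between.

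**Figure D2:**
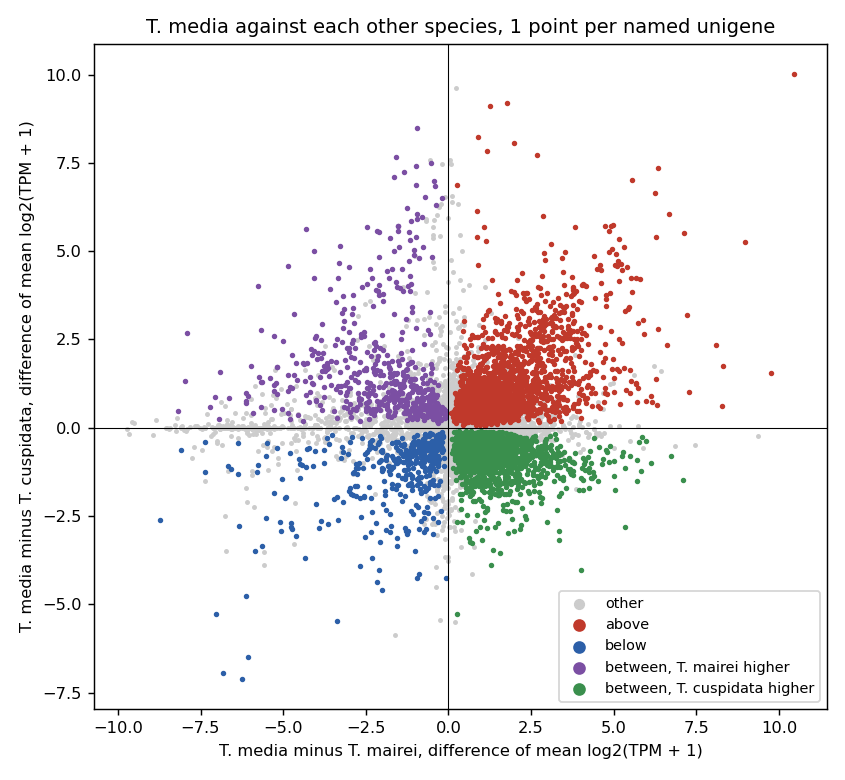
Difference of mean log2(TPM + 1) of *T. media* minus *T. mairei* (x axis) and *T. media* minus *T. cuspidata* (y axis), 1 point per named unigene, coloured by the position of the *T. media* libraries. The 2393 unigenes above lie at the upper right, the 408 below at the lower left, and of the 2122 between, the 1609 where *T. cuspidata* is higher lie at the lower right. Both axes share the *T. media* libraries.

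Unigenes between the species leaned towards *T. cuspidata*. Taking the way from *T. cuspidata* to *T. mairei* on the log2 scale as 1, the median position of *T. media* was 0.37 (quartiles 0.26 and 0.50) where *T. cuspidata* was higher, and 74.5% of these unigenes were nearer to *T. cuspidata*. Where *T. mairei* was higher it was 0.42 (0.29 and 0.56), with 64.3% nearer to *T. cuspidata*. With size factors the shares were 62.8% and 67.3%. A typical unigene above had mean TPM of 18.9 in *T. media*, against 9.46 in *T. cuspidata* and 6.54 in *T. mairei* (medians over unigenes), and a typical one below 8.9, 21 and 28. Those between with *T. mairei* higher spanned the widest range, with 9.8, 2.38 and 46.4 TPM, and only 54.4% of them reached 1 TPM in all 9 libraries, against 83.5% of all tested members.

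The assembly pooled the species, so several unigenes can carry the name of a single gene, and 5878 of the members tested shared their name with another unigene. Where TPM was summed over all unigenes of a name, 1786 of the 2393 above (74.6%) belonged to a name that was above as well. For those below the share was 62.5%, and between it was 68.4% with *T. cuspidata* higher and 51.1% with *T. mairei* higher. Among names with several unigenes the shares fell to 59.6%, 43.8%, 42.4% and 39.7%. The position held under both the size factors and the summed name for 1017 unigenes above, 255 below and 847 between (603 with *T. cuspidata* higher and 244 with *T. mairei* higher). For those below, the size factors could remove none, so that count rests on the summed name alone. Sums over the name are given below beside the leading unigenes.

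Among unigenes above, the widest gaps to both other species were found for EMB30 and for genes of cell walls, fermentation and lignin. EMB30 (comp15625_c0, 579 bp), annotated only with metal ion binding, had 5999.36, 8281.50 and 7931.02 TPM in the *T. media* libraries. In *T. cuspidata* it had 8.96, 3.95 and 6.31 TPM, and in *T. mairei* 3.77, 7.14 and 2.67. The lowest hybrid library was thus far above the highest of the others, and the log2 fold change against both was 10.23 (standard error 0.29, adjusted p = 1.6e-07, limma with Benjamini-Hochberg adjustment). Its 2 unigenes together had 9846.23 to 13448.11 TPM in *T. media*, compared with 179.98 to 205.81 in *T. cuspidata* and 204.19 to 334.33 in *T. mairei*.

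ROMT-15 (comp24815_c0), annotated as a caffeoyl-CoA O-methyltransferase, an enzyme that methylates lignin building blocks, had 1272.27, 1086.18 and 1325.31 TPM in *T. media*. The *T. cuspidata* libraries had 25.06, 28.47 and 42.47 TPM and those of *T. mairei* 1.36, 0.82 and 2.36. All 3 species were apart from each other, with a log2 fold change of 5.25 against *T. cuspidata* (adjusted p = 2e-06) and 8.97 against *T. mairei* (adjusted p = 2.1e-08, limma with Benjamini-Hochberg adjustment). Summed over its 4 unigenes, the ortholog had 2070.48 to 2692.37 TPM in *T. media*, beside 501.21 to 990.78 in *T. cuspidata* and 229.64 to 420.04 in *T. mairei*, so the order held while the distance shrank.

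XTH (comp24654_c0), a xyloglucan endotransglucosylase that loosens and rejoins cell wall polymers, had 102.31, 99.65 and 115.33 TPM in *T. media* and 0.00 to 1.06 TPM in the 6 other libraries. ADH1 (comp16211_c0), the alcohol dehydrogenase of fermentation, had 57.55, 74.73 and 71.12 TPM in *T. media* and 0.18 to 1.21 in the others. In both, the hybrid libraries alone held more than a trace. The log2 fold changes against both species were 6.36 (standard error 0.17) and 5.24 (standard error 0.21), with adjusted p of 1.5e-07 and 4.8e-07 (limma with Benjamini-Hochberg adjustment). XTH unigenes summed to 144.49 to 183.93 TPM in *T. media* and at most 18.11 elsewhere, and the 2 ADH1 unigenes to 91.40 to 111.57 and at most 18.30.

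The other unigenes named by the same rule were a receptor kinase, a transporter, an F-box protein and an aquaporin. At1g30570 (comp22904_c0), a receptor kinase, had 138.12, 76.79 and 72.95 TPM in *T. media* against 0.00 to 2.01 elsewhere. At1g68570 (comp21490_c1), a transporter of the POT family, had 44.38, 45.72 and 49.12 TPM against 0.13 to 0.86. GID2 (comp10207_c0), in rice the F-box protein that passes on the gibberellin signal, had 60.77, 53.66 and 52.38 TPM against 0.00 to 1.24, and TIP4-1 (comp50300_c0), a water channel of the vacuole membrane, 27.09, 36.21 and 30.97 TPM against 0.00 to 0.19. Lack of overlap with another species and calls against each were conditions of their choice. By gap alone the beta-glucosidase BGLU12 (comp29006_c0) also entered, with 107.35, 101.61 and 89.16 TPM in *T. media*, 0 listed in each *T. cuspidata* library and 0.03, 1.20 and 0.01 TPM in *T. mairei*. Over its 4 unigenes, however, *T. mairei* replicate 2 had 164.85 TPM against 103.00 to 125.11 in *T. media*, so the gene as a whole was not above.

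Among unigenes below, the widest gaps belonged to genes of stress protection, defence and protein modification. LEA14-A (comp21878_c0), a late embryogenesis abundant protein that shields cells in drought, had 5.62, 3.46 and 3.54 TPM in *T. media*. It had 729.51, 660.92 and 714.78 TPM in *T. cuspidata* and 489.09, 344.99 and 353.60 in *T. mairei*. Mean TPM was 167 times higher in *T. cuspidata* and 94.1 times higher in *T. mairei* than in the hybrid (log2 fold change against both -6.68, standard error 0.17, adjusted p = 1.2e-07, limma with Benjamini-Hochberg adjustment). A second unigene of the name added next to nothing in *T. media*, where the sum remained at 3.46 to 5.62 TPM, against at least 660.92 elsewhere.

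Def2 (comp25262_c0), a defensin, that is, a small antimicrobial protein, had 10.55, 7.88 and 6.25 TPM in *T. media*. The libraries of *T. cuspidata* had 788.30, 824.02 and 815.03 TPM and those of *T. mairei* 896.00, 469.54 and 533.60. The hybrid was far below and the other species overlapped with each other (log2 fold change against both -6.28, standard error 0.22, adjusted p = 3.1e-07, limma with Benjamini-Hochberg adjustment). DREB2C (comp29666_c0), a transcription factor of the drought response, had 2.59, 0.40 and 1.52 TPM in *T. media*, against 74.07 to 122.09 in *T. cuspidata* and 273.33 to 329.17 in *T. mairei*. RCE1 (comp21433_c0), the enzyme that attaches the ubiquitin-like protein RUB, had 3.23, 0.00 and 1.15 TPM in *T. media* and 202.25 to 302.75 in the others, yet with its 3 unigenes summed the hybrid held 126.61 to 133.72 TPM against 299.83 to 431.72.

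Smaller gaps were seen for PARP1 (comp28417_c0), a DNA repair enzyme, with 2.30, 2.42 and 1.43 TPM in *T. media* against 30.80 to 80.99 in the others. XTH30 (comp17470_c0), a further cell wall enzyme, had 18.24, 14.45 and 19.18 TPM against 103.45 to 291.96, so members of this enzyme family stood on both sides. RT (comp30201_c1), annotated as an anthocyanidin glucosyltransferase, which attaches sugar to flavonoid pigments, had at most 8.01 TPM in *T. media* against 45.29 to 85.05. All 3 were below as sums over their names, which was a condition of their choice. The chaperone dnaJ (comp27596_c0) had at most 3.24 TPM in *T. media* against 34.38 to 210.60, but the name covers 32 unigenes, and their sum differed by -0.48 on the log2 scale (adjusted p = 0.0018, limma with Benjamini-Hochberg adjustment), short of the threshold of 1.

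**Figure D3:**
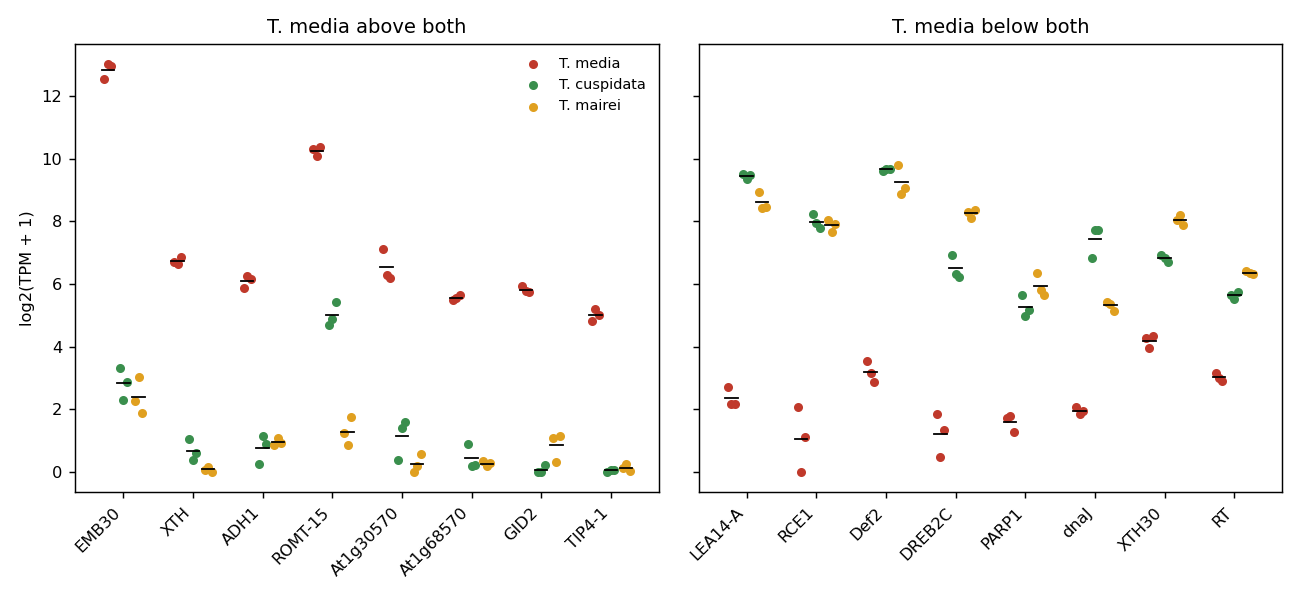
log2(TPM + 1) (y axis) of the 8 unigenes with the widest gap above and the 8 below (x axis) among those called against each other species and placed alike by the sum over their name, 1 point per library with the species mean as a line. In each panel the 3 *T. media* points lie clear of the 6 others; EMB30 reaches 5999.36 TPM or more in *T. media* and at most 8.96 elsewhere.

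Unigenes called between the species with *T. mairei* higher were led by KEX1 (comp26624_c1), with 34.43, 48.09 and 45.80 TPM in *T. media*, compared with 0.27, 0.11 and 0.70 in *T. cuspidata* and 749.87, 570.10 and 892.70 in *T. mairei*. It carries the name of a fungal carboxypeptidase, a protein-trimming enzyme, and has no second unigene. Pcyt1b (comp8423_c0), an enzyme of phosphatidylcholine synthesis, had 15.14, 18.89 and 20.47 TPM in *T. media*, was listed at 0 in every *T. cuspidata* library and had 179.54 to 207.71 TPM in *T. mairei*. PUMP5 (comp17410_c0), a carrier of the inner mitochondrial membrane, had 22.74, 26.99 and 27.39 TPM, against at most 0.19 in *T. cuspidata* and 211.22 to 322.07 in *T. mairei*. PUMP5 kept this order as a sum over its 2 unigenes, while Pcyt1b, like KEX1, has no second unigene to add. The chitinase Cht6 (comp24618_c0), a defence enzyme that cuts fungal walls, had 35.97, 12.04 and 11.95 TPM in *T. media*, beside 0.00 to 0.32 in *T. cuspidata* and 473.91 to 2010.98 in *T. mairei*. Over its 8 unigenes the hybrid was much nearer to *T. mairei*, at 816.00 to 2012.69 TPM against 12.86 to 20.59 and 2034.28 to 4041.62. For RBP31 (comp17647_c0), an RNA-binding protein of chloroplasts with 11.85 to 17.34 TPM in *T. media* and 177.04 to 207.55 in *T. mairei*, and for PHYPADRAFT_128349 (comp16908_c0), an enzyme of methionine recycling with 16.80 to 19.72 and 209.58 to 402.57, the place was lost. Summed over the name, RBP31 turned to 1.05 for *T. media* vs. *T. mairei* and -0.84 vs. *T. cuspidata* on the log2 scale.

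With *T. cuspidata* higher, At1g77330 (comp23566_c0), annotated as the enzyme that makes ethylene (aminocyclopropanecarboxylate oxidase), had 7.59, 18.82 and 30.47 TPM in *T. media*, against 259.88, 320.73 and 281.65 in *T. cuspidata* and 0.00 to 0.15 in *T. mairei*. RAV2 (comp29220_c1), a transcription factor with a single unigene, had 40.38, 43.79 and 40.82 TPM in *T. media*, compared with 271.43 to 323.60 in *T. cuspidata* and 7.03 to 9.27 in *T. mairei*. The hybrid differed from *T. cuspidata* by -2.76 and from *T. mairei* by 2.21 on the log2 scale (adjusted p = 1.2e-06 and 1.1e-06, limma with Benjamini-Hochberg adjustment). PCKR1 (comp25667_c0), a peptidylprolyl isomerase that helps proteins fold, had 147.58 to 222.26 TPM in *T. media*, beside 808.07 to 1604.37 in *T. cuspidata* and 2.28 to 4.34 in *T. mairei*. Its 3 unigenes summed to 1910.94 to 2180.14 TPM, against 2376.78 to 4141.45 and 662.85 to 877.65. The place held, but the log2 difference from *T. cuspidata* shrank to -0.69, short of the threshold. At3g02645 (comp27736_c0) was between at 9.67 to 21.36 TPM. MED37C (comp24665_c0), a heat shock protein, and RPS28 (comp21180_c1), a ribosomal protein, were between as unigenes at 89.40 to 98.93 and 86.14 to 93.64 TPM, but over their names MED37C was below both species, and RPS28 overlapped with *T. mairei* (366.95 to 403.70 TPM in the hybrid, 353.22 to 391.03 in *T. mairei*) and was below *T. cuspidata* (477.51 to 543.61).

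Gene groups taken from the deposited annotation differed widely in where the hybrid stood. Lists are described by counts and by the median log2 fold change against both species, beside 0.33 for all unigenes on TPM and -0.04 with size factors. List counts are to be read beside the shares of all unigenes tested. Of these, 19.8% were above, 3.59% below and 15.6% between (12.7%, 7.88% and 14.8% with size factors). The lists hold only named unigenes of at least 500 bp. Among all such unigenes, 25.0% were above, 4.26% below and 22.2% between (13.8%, 11.4% and 20.6% with size factors). Limma called 21.0% of all unigenes tested higher and 14.0% lower than the mean of both species, and 9.96% higher than each.

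The flavonoid pathway makes pigments, tannin precursors and sunscreens from phenylalanine. Of its 48 unigenes tested, 27 were above, none below and 9 between, and with size factors 20 were above and 1 below. By limma 32 were called higher and 1 lower, 19 were called higher than each other species, and the median log2 fold change was 1.55 (1.13 with size factors). Leaving out any library moved the number above between 26 and 29. Fewer libraries loosen the rule of no overlap, so position counts can then fall only through the TPM filter. Summed over all 67 unigenes of the list, TPM was 6625, 5518 and 6068 in *T. media*, against 2435, 2736 and 3030 in *T. cuspidata* and 1823, 2466 and 1929 in *T. mairei*. The hybrid libraries thus held more than any other library.

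The sums by enzyme (KEGG ortholog) placed 7 of 11 above, and 4 of 11 with size factors. Both counts include caffeoyl-CoA O-methyltransferase, described above with lignin. It made up a large part of the list sum, at 2070.48 to 2692.37 TPM in *T. media*. In *T. cuspidata* it had 501.21 to 990.78 TPM, and in *T. mairei* 229.64 to 420.04. Chalcone synthase, which forms the flavonoid skeleton, had 1132.45, 867.02 and 947.17 TPM in *T. media*, compared with 320.89 to 502.54 in *T. cuspidata* and 210.99 to 531.80 in *T. mairei*. Naringenin 3-dioxygenase had 436.23, 327.84 and 366.16 TPM in *T. media* and 118.41 to 180.35 in the others. Anthocyanidin reductase, which leads to tannin units, had 294.93, 229.09 and 236.17 TPM, against 163.40 to 181.98 in *T. cuspidata* and 41.12 to 65.25 in *T. mairei*. Flavonol synthase (489.62 to 537.60 TPM against at most 397.06) and flavonoid 3'-monooxygenase (533.23 to 609.85 against at most 393.38) were above too. Chalcone isomerase was the exception among the core steps, between the species at 59.69 to 67.72 TPM against 76.15 to 90.51 in *T. cuspidata* and 17.24 to 27.52 in *T. mairei*. With size factors chalcone synthase, flavonoid 3'-monooxygenase and leucoanthocyanidin dioxygenase overlapped with another species. Of single unigenes, ANS (comp24382_c0) had 99.51, 82.08 and 104.23 TPM in *T. media* and at most 16.38 elsewhere, though the 6 unigenes of that name together overlapped with *T. mairei*.

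Phenylpropanoid biosynthesis, which feeds both lignin and flavonoids, was less one-sided. Of 98 unigenes tested, 27 were above, 5 below and 24 between (19, 7 and 27 with size factors), and without *T. media* replicate 1 the number below was 9. Here the median log2 fold change of 0.39 was close to that of all unigenes. A PAL unigene (comp13676_c0), of the first enzyme of the pathway, was below at 0.49, 1.37 and 0.93 TPM, whereas others of the 11 unigenes with this name lay between the species.

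Diterpenoid biosynthesis, here mainly the steps to gibberellins, the hormones of stem elongation, had 8 of 14 unigenes above on both scales and none below (1 with size factors). By limma 11 were called higher and 1 lower (median log2 fold change 1.77, with size factors 1.37). GA4 (comp18187_c0), the gibberellin 3-oxidase that forms the active hormone in Arabidopsis, had 5.62, 8.32 and 9.33 TPM in *T. media*, beside 0.58, 0.44 and 1.40 in *T. cuspidata* and 0.00, 0.16 and 0.00 in *T. mairei*. KAO2 (comp16065_c0), an earlier oxidase, had 9.19, 6.72 and 5.82 TPM, against 2.96, 1.65 and 1.55 and at most 0.02. For both genes *T. media* was highest and *T. mairei* lowest, with no overlap. The ortholog sums of ent-kaurene synthase (57.60 to 75.86 TPM in *T. media*) and ent-kaurene oxidase (28.14 to 30.33) were above as well, at most 43.41 and 16.60 elsewhere.

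Other members made the group less uniform. The 5 unigenes of gibberellin 20-oxidase together overlapped with *T. cuspidata* at 792.54 to 1057.37 TPM, and GA2OX7 (comp29190_c1), named after an enzyme that inactivates gibberellins but annotated as a 20-oxidase, was between at 252.16 to 498.09. The terpene cyclase unigenes ag1 (comp23863_c0), whose GO term is alpha-bisabolene synthase, with 21.95, 34.85 and 52.14 TPM, and TPS-LAS (comp29934_c0), of levopimaradiene, a resin diterpene, with 41.35, 39.30 and 25.10, were above. They had at most 0.61 and 8.97 TPM in the other species. The ortholog to which both were assigned, ent-copalyl diphosphate synthase (3 unigenes), was nevertheless between the species on TPM, at 65.35 to 78.95 in the hybrid, 92.51 to 212.47 in *T. cuspidata* and 5.52 to 40.40 in *T. mairei*, and overlapped with another species with size factors. The list's summed TPM was not higher in the hybrid (984 to 1243, against 1165 to 1249 in *T. cuspidata* and 211 to 344 in *T. mairei*).

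The upstream terpenoid backbone pathways gave 10 of 31 above, 2 below and 5 between, and with size factors 4, 3 and 6. The number between was 9 without *T. media* replicate 2 and 8 without *T. cuspidata* replicate 1. DXR (comp25432_c0), of the plastid pathway, had 45.39, 58.20 and 49.73 TPM in *T. media*, against 23.59 to 35.15 in *T. cuspidata* and 11.12 to 18.09 in *T. mairei*, and mevalonate kinase (At5g27450, comp28739_c0) 14.48, 16.56 and 14.98 TPM against at most 9.88. Isopentenyl-diphosphate isomerase as an ortholog was below at 36.68 to 45.48 TPM, against 49.94 to 57.38 and 72.72 to 81.74.

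The GO term for paclitaxel biosynthesis went the other way. Its hydroxylases and acyltransferases decorate the taxane core. Of 19 named unigenes tested, 9 were below, 1 above and 3 between, and with size factors 10, 0 and 1. By limma 12 were called lower and 3 higher, with a median log2 fold change of -2.10 (-2.19 with size factors). Leaving out any library left 9 or 10 below, a count that this step could lower only through the TPM filter. CYP725A1 (comp28508_c1), a taxoid hydroxylase name, had 38.78, 20.98 and 29.76 TPM in *T. media*, compared with 192.86, 401.21 and 280.93 in *T. cuspidata* and 86.98, 280.06 and 80.00 in *T. mairei*. TAX10 (comp26275_c0), a taxoid acyltransferase name, had 14.90, 8.32 and 11.73 TPM in *T. media*, beside 26.34 to 95.16 in *T. cuspidata* and 31.58 to 70.86 in *T. mairei*. Both were lower in the hybrid than in each other species (log2 fold changes -1.90 to -3.22, adjusted p at most 0.0095, limma with Benjamini-Hochberg adjustment).

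Unigenes of the same family did not move as a block. CYP725A2 (comp30207_c0) was above on TPM at 144.40, 79.60 and 94.40, against at most 70.28 elsewhere, although not with size factors, while comp16461_c0 of the same name was below at 0.26 to 0.73 TPM against 6.74 to 80.91. Over the 12 unigenes of that name the species overlapped. The 37 unigenes of the name CYP725A1 summed to 353.43, 231.31 and 249.21 TPM in *T. media*, against 565.86 to 1086.64 in *T. cuspidata* and 500.35 to 1777.58 in *T. mairei*, and reads of such near copies may be shared among them. Over all 91 unigenes of the term, TPM summed to 903, 753 and 761 in *T. media*, compared with 2336, 4329 and 3602 in *T. cuspidata* and 1549, 4834 and 1754 in *T. mairei*. The hybrid libraries lay within a narrow range below all others, and *T. mairei* replicate 2 stood apart from its partners.

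Linolenic acid metabolism supplies jasmonates, the hormones of wounding. Of 41 unigenes tested, 15 were above, none below and 2 between (with size factors 14, 1 and 6). The number between was 7 without *T. media* replicate 1, 5 without *T. media* replicate 3 and 4 without *T. cuspidata* replicate 3. Limma called 13 higher and 5 lower. The median log2 fold change of 0.44 (0.01 with size factors) was close to that of all unigenes. The share above was nevertheless 36.6%, beside 19.8% of all unigenes tested and 25.0% of the named ones. Summed TPM of the list was highest in the hybrid, at 3255 to 3586 against at most 2032 elsewhere. LOX1.1 (comp28144_c0), a lipoxygenase, had 112.70, 138.89 and 145.70 TPM in *T. media*, beside 0.04, 0.01 and 0.03 in *T. cuspidata* and 0.64, 0.49 and 8.30 in *T. mairei*. Its 5 unigenes summed to 316.34 to 392.10 TPM in *T. media*, against 67.76 to 73.33 in *T. cuspidata* and 18.65 to 42.90 in *T. mairei*, so the gap was smaller but open. DOX1 (comp25222_c0), an alpha-dioxygenase of defence lipids and the only unigene of its ortholog, had 63.21, 62.90 and 75.54 TPM against 0.96 to 4.71 and 0.23 to 0.84.

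Summed by ortholog, 4 of 11 in this list were above on TPM, and 4 with size factors. Besides alpha-dioxygenase, these were lipoxygenase, hydroperoxide dehydratase and allene oxide cyclase of the branch to jasmonate. All lipoxygenase unigenes summed to 1517.30, 1683.43 and 2041.56 TPM in *T. media*, compared with 1015.91 to 1101.23 in *T. cuspidata* and 311.76 to 410.05 in *T. mairei*. Hydroperoxide dehydratase (allene oxide synthase) had 220.49, 313.07 and 350.33 TPM against at most 171.70, and allene oxide cyclase 167.92, 174.87 and 160.97 against at most 59.07. These 3 kept their place with size factors. The later oxophytodienoate reductase overlapped with *T. mairei*, at 277.54 to 418.68 TPM in *T. media* and 215.85 to 538.47 in *T. mairei*. Phospholipase A2 of the same list overlapped as well, at 23.93 to 38.61 TPM against 23.12 to 127.74 in *T. mairei*.

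Photosynthesis unigenes were mostly between, with *T. cuspidata* higher. This held for 25 of 46 unigenes of the photosynthesis list (22 with size factors) and 13 of 16 antenna proteins (13), the proteins that catch light for the photosystems. Summed by ortholog, 17 of 39 in the photosynthesis list were so placed (15 with size factors), so fewer by this count. In the summed TPM no species overlapped with another. Summed TPM of the antenna list was 12505, 26137 and 24034 in *T. media*, beside 33590, 39101 and 36939 in *T. cuspidata* and 4306, 3111 and 5441 in *T. mairei*, and the photosynthesis list had 16471 to 31962, 41631 to 50808 and 3423 to 5250. *T. media* replicate 1 was the lowest of the hybrid in both. These values follow the needle marker sums given above, which hold many of the same genes, and the part of needle share in them was not tested.

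CAB36 (comp20943_c0), a light-harvesting protein, had 585.48, 1260.02 and 1225.14 TPM in *T. media*, against 2810.80, 3773.60 and 3419.16 in *T. cuspidata* and 57.88, 45.16 and 68.00 in *T. mairei*. PSBS (comp21791_c0), which disposes of surplus light energy, had 194.52, 493.13 and 232.27 TPM, against 1126.16 to 1600.81 and 20.84 to 39.24. LHCB5 shows how unigenes of a name can oppose each other. Its unigene comp17420_c0 had 711.25 to 1904.40 TPM in *T. media*, compared with 3711.73 to 3905.09 in *T. cuspidata* and 16.45 to 32.81 in *T. mairei*, whereas comp14838_c0 had 8.06 to 12.56, 0.33 to 1.49 and 230.06 to 445.97. The ortholog sum was 727.17 to 1916.96 in *T. media*, beside 3713.22 to 3906.22 in *T. cuspidata* and 246.56 to 478.81 in *T. mairei*, that is, between again, and 8 of 11 antenna orthologs were so placed on TPM and 5 with size factors.

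Carbon fixation was divided, with 13 of 39 above, none below and 13 between with *T. cuspidata* higher (9, 1 and 10 with size factors). By ortholog, 2 of 20 were above, 1 below and 7 between with *T. cuspidata* higher (1, 3 and 8 with size factors). FBA2 (comp27214_c1), a plastid aldolase of the Calvin cycle, was between at 1165.24, 2092.88 and 1610.11 TPM against 3837.07 to 4562.01 and 50.71 to 113.65. RBCS-4 (comp22886_c0), a Rubisco small subunit unigene, was above at 20.47, 15.95 and 31.31 TPM, with all 6 other libraries at 0 except 0.04 in *T. mairei* replicate 2. The small subunit as an ortholog (9 unigenes) overlapped with *T. cuspidata*, at 10096.11 to 14364.93 TPM in *T. media* against 11150.36 to 12947.13. PCKA (comp29886_c0), phosphoenolpyruvate carboxykinase of sugar synthesis, was above at 90.76, 57.93 and 52.91 TPM against at most 22.68.

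Ribosomal proteins were between in 120 of 211 unigenes, 104 of them with *T. cuspidata* higher, while 9 were above and 12 below. With size factors 103 were between, 2 above and 32 below, and without *T. media* replicate 1 the number below on TPM was 20. Summed TPM of all 369 unigenes was 30966, 29346 and 27715 in *T. media*, against 41707, 43618 and 44661 in *T. cuspidata* and 24988, 25739 and 25628 in *T. mairei*. The hybrid was thus little above *T. mairei* on this scale. By ortholog, 50 of 118 were between with *T. cuspidata* higher and 12 below on TPM, but 21 and 62 with size factors, so the side on which the hybrid lay relative to *T. mairei* rested on the scale.

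**Figure D4:**
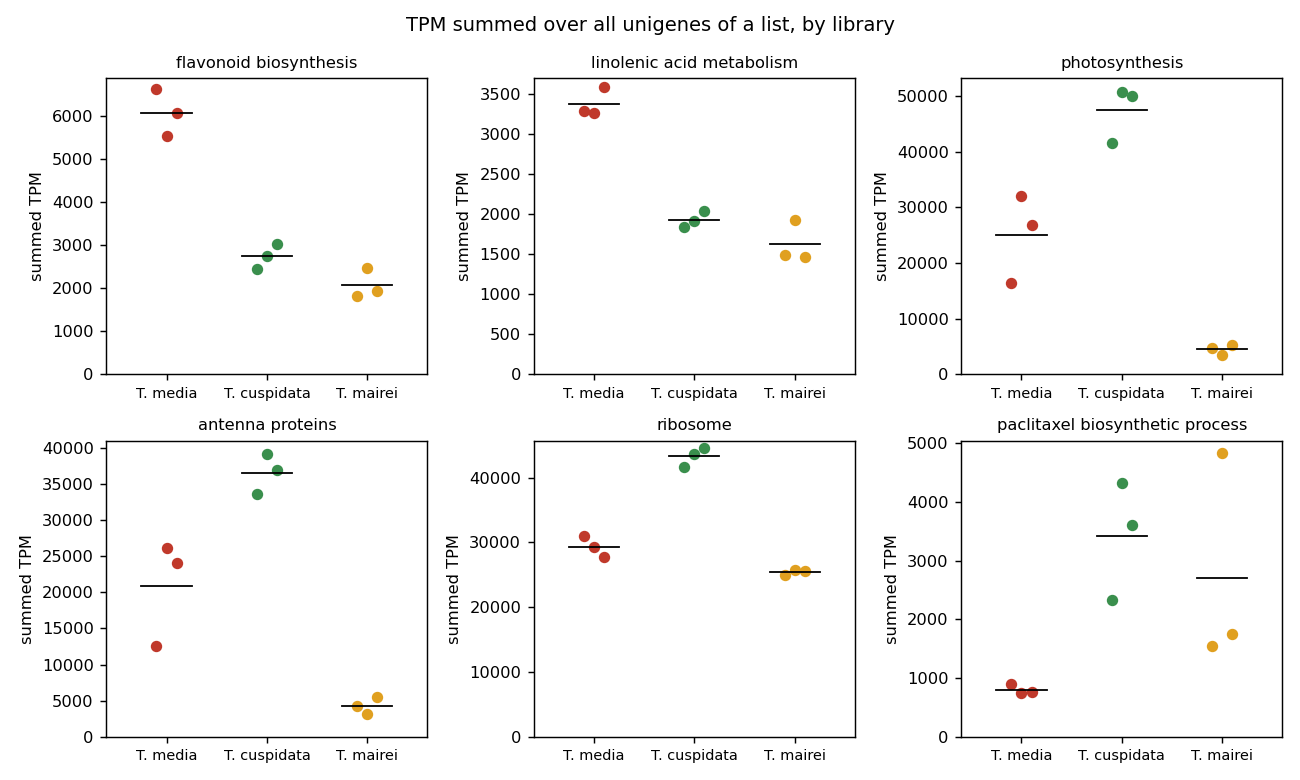
TPM summed over all unigenes of a list (y axis, from 0) in each library, grouped by species (x axis), with the species mean as a line. The 3 *T. media* points are highest for flavonoid biosynthesis (5518 to 6625) and linolenic acid metabolism (3255 to 3586), intermediate for photosynthesis, antenna proteins and ribosome, and lowest for paclitaxel biosynthesis (753 to 903).

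In starch and sucrose metabolism, 48 of 146 were above, 11 below and 20 between, and with size factors 31 above and 20 below. Starch building and breaking both had members above. AGPS1 (comp22161_c0), a subunit of ADP-glucose pyrophosphorylase, which commits sugar to starch, had 383.08, 284.54 and 250.82 TPM in *T. media* and 10.86 to 17.61 in the others. BAM3 (comp23871_c0), a starch-degrading beta-amylase, had 28.30, 24.05 and 22.33 TPM against 0.07 to 2.12. Among those below were 2 unigenes of invertases, which split sucrose. CWINV1 (comp28580_c1), of the cell wall, had 5.39, 4.77 and 6.15 TPM in *T. media*, compared with 111.53 to 160.55 in *T. cuspidata* and 24.82 to 31.31 in *T. mairei*, and INV*DC4 (comp29992_c0), of the vacuole, 15.49, 17.06 and 16.59 against 36.71 to 84.32. For AGPS1, BAM3 and CWINV1 the log2 fold changes against both were 4.35, 3.94 and -3.27, with adjusted p of 2.4e-07, 3.9e-06 and 5.8e-07 (limma with Benjamini-Hochberg adjustment).

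The circadian clock list had 16 of 49 above, 2 below and 9 between (11, 4 and 12 with size factors). It also holds unigenes of chalcone synthase, casein kinase 2 and the kinase WNK1. By ortholog, 3 of 16 were above, chalcone synthase among them, and 2 below (2 and 3 with size factors). LHY (comp26098_c0), in Arabidopsis a transcription factor of the morning, had 61.51, 64.53 and 70.48 TPM in *T. media*, beside 4.89, 3.75 and 3.99 in *T. cuspidata* and 2.37, 1.86 and 2.11 in *T. mairei* (log2 fold change against both 4.05, standard error 0.12, adjusted p = 1.7e-07, limma with Benjamini-Hochberg adjustment). Over the 3 unigenes of its ortholog the hybrid had 170.38, 172.24 and 186.45 TPM, *T. cuspidata* 100.24 to 115.68 and *T. mairei* 30.03 to 44.40. Pseudo-response regulators repress LHY in Arabidopsis. APRR9 (comp30006_c1) was below at 1.25, 3.90 and 1.92 TPM against 12.77 to 22.47, and PRR73 (comp30006_c2), of the same assembly component, at 13.94, 16.42 and 11.65 TPM against 24.81 to 83.13. Summed by ortholog, pseudo-response regulator 5 was below, at 15.24 to 29.23 TPM against 34.99 to 54.62, while regulators 9 and 1 overlapped with *T. cuspidata* and regulator 7 was between (on TPM only). GI (comp25422_c0), an evening gene in Arabidopsis, was between at 5.64, 6.40 and 5.95 TPM, with 2.04 to 3.17 in *T. cuspidata* and 18.80 to 23.18 in *T. mairei*. The hour of collection was not given in the sources used here.

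The transcription factor families did not share a place. WRKY factors, known for defence, were between with *T. mairei* higher in 15 of 45 unigenes (19 with size factors), against 4.86% of all unigenes tested, with 7 above and 3 below (3 and 4 with size factors). WRKY53 (comp18930_c0) had 4.13, 3.47 and 3.22 TPM in *T. media*, against 0.12 to 0.38 in *T. cuspidata* and 41.42 to 76.07 in *T. mairei*, and WRKY42 (comp29580_c0) 19.23, 13.38 and 16.47 TPM, 1.86 to 3.80 and 102.43 to 133.87. The ERF list, which also took in 3 unigenes of an unrelated release factor, had 5 of 39 above, 4 below and 10 between (2, 5 and 11 with size factors). Limma called 5 higher and 19 lower (median log2 fold change -1.14). Summed TPM was 578 to 692 in *T. media*, compared with 709 to 889 in *T. cuspidata* and 3369 to 4395 in *T. mairei*, so *T. mairei* alone stood far above. ERF1A (comp21724_c0), of the ethylene response, was below both at 11.22, 9.53 and 9.22 TPM against 35.93 to 90.62.

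MYB factors had 11 of 32 above, 1 below and 4 between (6, 4 and 5 with size factors), and 7 were between without *T. media* replicate 1. MYB3 (comp24941_c0) had 33.38, 36.87 and 32.35 TPM in *T. media* and 1.52 to 3.42 elsewhere, and MYB39 (comp1598_c0) had 5.23, 8.16 and 4.81 TPM with 0 listed in all 6 other libraries. NAC factors had 7 of 20 above and 1 below (5 and 2 with size factors). NAC098 (comp23478_c0), in Arabidopsis a gene of organ boundaries, had 27.47, 18.96 and 17.88 TPM in *T. media*, beside 1.57 to 3.50 in *T. cuspidata* and 0.61 to 1.39 in *T. mairei*. Among bHLH factors 8 of 26 were above and none below (5 and 1 with size factors), among them BHLH93 (comp13333_c0) at 28.05, 17.31 and 20.77 TPM against at most 5.69. BHLH66 (comp24789_c0), annotated as phytochrome-interacting factor 3, had 55.39, 67.09 and 60.85 TPM against 13.65 to 19.52, and the sum of that ortholog was above too, at 187.38 to 201.87 TPM against at most 108.53.

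Cytochrome P450 names (CYP) had 47 of 137 above, 9 below and 30 between, and with size factors 37, 14 and 22. CYP82A3 (comp18840_c0) was above at 17.43, 20.36 and 17.52 TPM against 0.21 to 0.79, and CYP76C2 (comp28852_c0) below at 10.12, 10.50 and 7.81 against 21.83 to 49.50, though its 5 unigenes together overlapped. The plant-pathogen list had 9 of 46 above, 4 below and 10 between (6, 6 and 7 with size factors). The share above, 19.6%, was close to that of all unigenes tested (19.8%) and under that of the named unigenes (25.0%). The 4 unigenes widest above were all cyclic nucleotide-gated channels, which admit calcium, such as CNGC4 (comp28334_c0) with 62.58, 53.19 and 64.42 TPM against 5.14 to 15.42. Those below included calmodulin-like genes, such as CML32 (comp3531_c0) at 0.23, 0.37 and 0.90 TPM against 1.91 to 7.44 (overlapping as a sum of its 3 unigenes).

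Glutathione metabolism had 8 of 53 above, 1 below and 19 between, but 4, 5 and 15 with size factors, so the balance rested on the scale. Its summed TPM was lower in the hybrid (4454 to 5172) than in *T. cuspidata* (7463 to 7817) and *T. mairei* (7780 to 9885). GSTF13 was below over its 5 unigenes together, although comp27138_c1 lay between, at 723.70 to 790.88 TPM in *T. media*, against 1545.53 to 1795.30 in *T. cuspidata* and 100.69 to 135.29 in *T. mairei*. The spliceosome list had 5 of 43 above, 3 below and 17 between, which turned to 2, 7 and 10 with size factors. At 2302 to 2506 TPM its sum was also under that of the other species (4260 to 5775). Heat shock proteins are counted in this list, and the 15 unigenes named HSP70 were below together. DNA replication had 4 of 22 above, 2 below and 6 between on TPM, and 1, 3 and 5 with size factors. For hormone signal transduction, protein processing in the endoplasmic reticulum and cutin and wax, no unigene was matched.

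**Figure D5:**
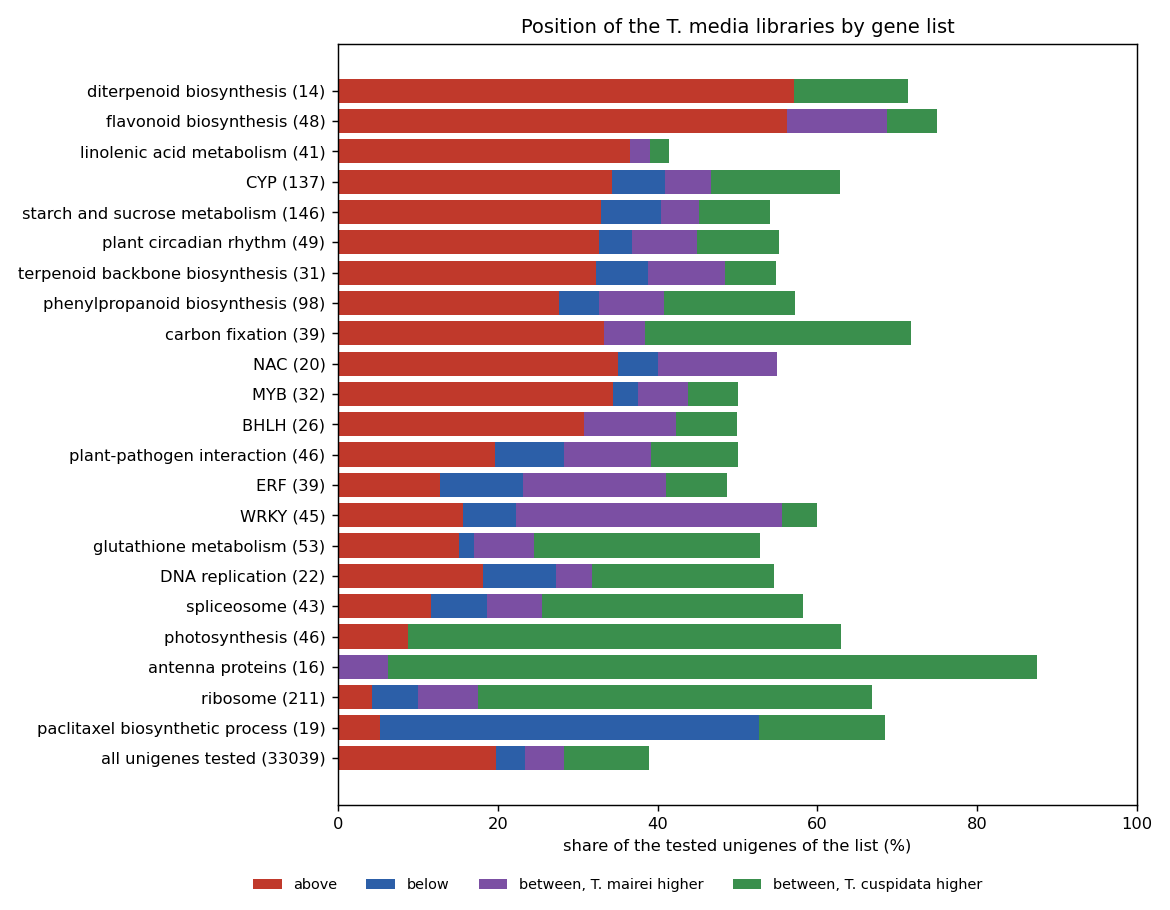
Share of the tested unigenes of each gene list, in percent (x axis), with the *T. media* libraries above, below or between the other species on TPM, with the number tested in brackets. Flavonoid biosynthesis has 27 of 48 above, antenna proteins 13 of 16 between with *T. cuspidata* higher, and paclitaxel biosynthesis 9 of 19 below, beside 19.8%, 3.59% and 15.6% above, below and between for all unigenes tested.

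By the functional classes of the KOG annotation, the share above was 36.4% of 77 named unigenes for defence (22.1% with size factors), 36.2% of 351 for secondary metabolism (27.6%) and 32.4% of 769 for signal transduction (16.3%). Inorganic ion transport followed with 30.6% of 216 (22.2%) and amino acid metabolism with 30.4% of 335 (20.9%), so signal transduction ranked below both with size factors. Translation had 9.52% of 441 above and 38.5% between with *T. cuspidata* higher (4.54% and 27.0% with size factors). Coenzyme metabolism had 9.68% of 93 above and 8.60% below, which was the largest share below on TPM. With size factors it had 16.1% below, and nucleotide metabolism had 20.2% of 94. In signal transduction 7.28% were between with *T. mairei* higher and 7.80% with *T. cuspidata* higher on TPM, but 15.0% and 4.94% with size factors.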

How the data were processed

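Poly(A) RNA from twigs was sequenced by the authors and assembled into unigenes. The deposited tables give, per unigene, expected counts (estimated, not normalized) and TPM for 8 libraries. For *T. mairei* replicate 3 the authors deposited TPM and RPKM in place of counts, and the RPKM column was not used. The aligner and counter are not given in the sources used here, and no reads were processed again. As TPM sums to the same total in every library, a few abundant unigenes can shift all others, which the size factors were meant to show.

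Unigenes with a TPM of at least 1 in at least 3 libraries entered limma 3.58.1 (R 4.3.3) on log2(TPM + 1), with a mean per species and Benjamini-Hochberg adjustment over all 33039. A fold change on this scale understates the change of low unigenes. Counts, rounded to whole numbers, were tested in edgeR 4.0.16 and DESeq2 1.42.0 as alternatives (8 libraries). Tables were handled in Python 3.11.15 with pandas 2.3.3. The fits were tested on simulated data.

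Named unigenes are the 8 per direction with the widest gap between nearest libraries among those called against each species and placed alike by name sum, the 4 widest without the name condition, the 6 widest per order among those called between, and up to 4 examples per list and place. Members and lists were chosen with earlier results of these data known. Sums over whole lists and orthologs, and orthologs named from them, were added after values were seen. Correlations of same-numbered deviations between species were small (-0.0615 to 0.0446), so the libraries were not treated as paired. Between *T. media* and *T. cuspidata*, however, the same number was the best match for all 3 replicates, at 0.022 to 0.0446.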

Additional observations from a re-analysis of the deposited data

How the results depend on the processing

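Shares are of the unigenes (or names, orthologs) tested. With size factors the share called higher moved from 18.9 to 11.2%, higher than each species from 7.94 to 5.28%, and lower than each from 1.27 to 2.29%, which edgeR put at 2.86% and DESeq2 at 3.35%. The share above moved from 25.0 to 13.8%, or to 16.3% on TMM-normalized counts, and below from 4.26 to 11.4% on both. Requiring a gap of 1 log2 unit left 4.31% above, 0.554% below and 1.99% between. Summing over KEGG orthologs gave 9.79% called higher, 3.25% lower, 3.30% higher than each and 2.48% between. The cause of these moves was not tested. Leaving out each library in turn gave 17.8 to 19.5% called higher, 5.85 to 8.28% lower, 6.74 to 8.16% higher than each, 1.20 to 1.33% lower than each and 4.64 to 6.07% between, and 26.1 to 28.4% above, 4.48 to 5.72% below and 23.1 to 26.6% between by position. With the replicate number as a block, 18.8% were called higher and 7.93% lower, and the numbers share no stated origin. Of 609 alternative values for the 29 unigenes named by widest gap, 599 kept direction and call. The examples from the gene lists were not part of this tally, and some of them lost their place as described above. The other 10 came from name sums, where PHYPADRAFT_128349 gave -0.21 against *T. cuspidata*, RBP31 -0.84 against *T. cuspidata* and 1.05 against *T. mairei*, and MED37C -2.30 against *T. mairei*. Position groups of 3 libraries against 6 cannot resolve small differences, and the depth of *T. mairei* replicate 3 is unknown. Since leaving out a library loosens the rule of no overlap, the higher shares by position in those settings are built in.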
